A study of Mus musculus with 12 samples.

Results

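In 3T3-L1 cells that carried a hairpin against Fto, 56 of the 55487 genes in the expression table were lower than in control cells at every stage of adipocyte differentiation that was sampled. These genes were selected on the measured values themselves. At each of 3 stages the higher of 2 shFto values was subtracted from the lower of 2 shScram values on the log2(TPM + 1) scale, and a gene was kept where this gap exceeded 1 at all 3 stages. TPM is a share of all transcripts corrected for length. Since the rule used the difference between the lines, that difference is described here without a test. The 56 genes make up 0.101% of the table and 0.351% of the 15968 genes with at least 1 TPM in at least 2 of 12 libraries. All 56 passed that filter because their shScram values had to be high under the rule.

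Fto encodes a demethylase that removes the methyl group of N6-methyladenosine (m6A), a common modification of messenger RNA, and the Fto locus is known for its link to body weight. 3T3-L1 cells are mouse fibroblasts committed to the fat lineage. After confluence and hormonal induction they pass through mitotic clonal expansion (MCE), a short round of cell division, before they switch on the adipocyte programme.

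The study asked how loss of Fto and the compound rhein affect adipogenesis. The 12 libraries used here came from cells with the scrambled control hairpin (shScram) or the hairpin against Fto (shFto), delivered by lentivirus and followed by puromycin selection, sampled before induction (Pre, preadipocytes), during MCE and after differentiation (Diff), with 2 libraries in each of 6 groups. Both lines received the same MDI induction followed by insulin, and rhein-treated cells and immunoprecipitated RNA were left out. The study's methods list more than one Fto hairpin without saying which these cells carried. Anything else that differed between the lines cannot be told apart from loss of Fto. The labels of shScram_Diff replicate 1 disagree (shScram in the title, knockdown under treatment), and this library was grouped by its title. It held 73.5 TPM of Fto, beside 70.8 TPM in replicate 2 of its group and 7.47 and 7.05 TPM in the shFto libraries at Diff. The libraries were made from short fragments of bulk RNA, in which fewer cells of a kind and less RNA per cell cannot be told apart, and depth is unknown because TPM keeps none. The 8 fibroblast markers reached 1 TPM and summed to between 8430 and 13400 TPM over the libraries. Over the tested genes, which do not count as independent replicates, r between the 2 shScram preadipocyte libraries was 0.939, against 0.990 to 0.993 in the other groups. Among the 56 genes, 16 were over 1.5 times higher in replicate 1 than in replicate 2 of that group and 4 were as far apart the other way. By a log2 difference of over 0.58, 19 of the genes separated those libraries and between 0 and 4 separated the libraries of any other group. The shares of all tested genes that lay as far apart were not counted, so these counts are a description.

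In the mean of the 6 shFto libraries the 56 genes kept between 0% and 37.2% of their mean shScram TPM, with a median of 16.5%. Of these genes, 11 kept under 5%, 10 kept 5% to 10%, 12 kept 10% to 20%, 14 kept 20% to 30% and 9 kept more. Mgat4c and Gm47775 were listed at 0 in all 6 shFto libraries. Another 8 genes were under 1 TPM in every shFto library, namely Foxp2, Sis, Sox6, Ndst4, Rspo3, Pcdh10, Zfp518b and 4933402E13Rik. The mean shScram level of the 56 genes ran from 2.27 TPM for Zfp518b to 2170 TPM for S100a10, with a median of 41.7 TPM.

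**Figure D1:**
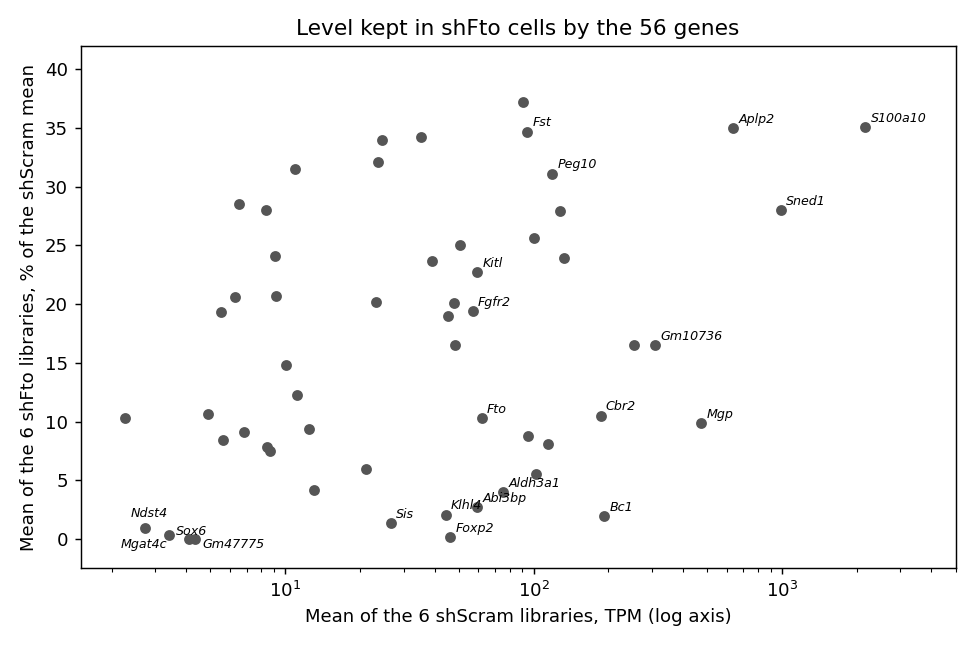
Level kept in shFto cells by each of the 56 genes (points), as the mean of 6 shFto libraries in % of the mean of 6 shScram libraries (vertical axis), against that shScram mean in TPM (horizontal, log axis). Foxp2, Klhl4, Sis, Abi3bp and Bc1 lay under 3% although their shScram means were between 26.6 and 192 TPM, and the abundant S100a10, Aplp2 and Sned1 kept 35.1%, 35.0% and 28.0%.

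A gap over 1 was seen in 210 tested genes (1.32%) at Pre, 432 (2.71%) at MCE and 441 (2.76%) at Diff. The 56 genes were thus 26.7% of the genes lower in preadipocytes but 13.0% and 12.7% of those lower at the later stages. The smallest of the 3 gaps was that of preadipocytes for 30 genes, that of MCE for 14 and that of Diff for 12. The median difference between the line means on the log2(TPM + 1) scale was -1.88 at Pre, -2.07 at MCE and -2.24 at Diff. For 11 genes the gap exceeded 2 at every stage. Just inside the threshold were 4933431E20Rik (smallest gap 1.021), Gm9118 (1.041) and Gria4 (1.051), and just outside it were Cox6c (0.996), Gm13340 (0.994) and Gm16332 (0.982). The same rule turned round was met by 144 genes that were higher in shFto cells.

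**Figure D2:**
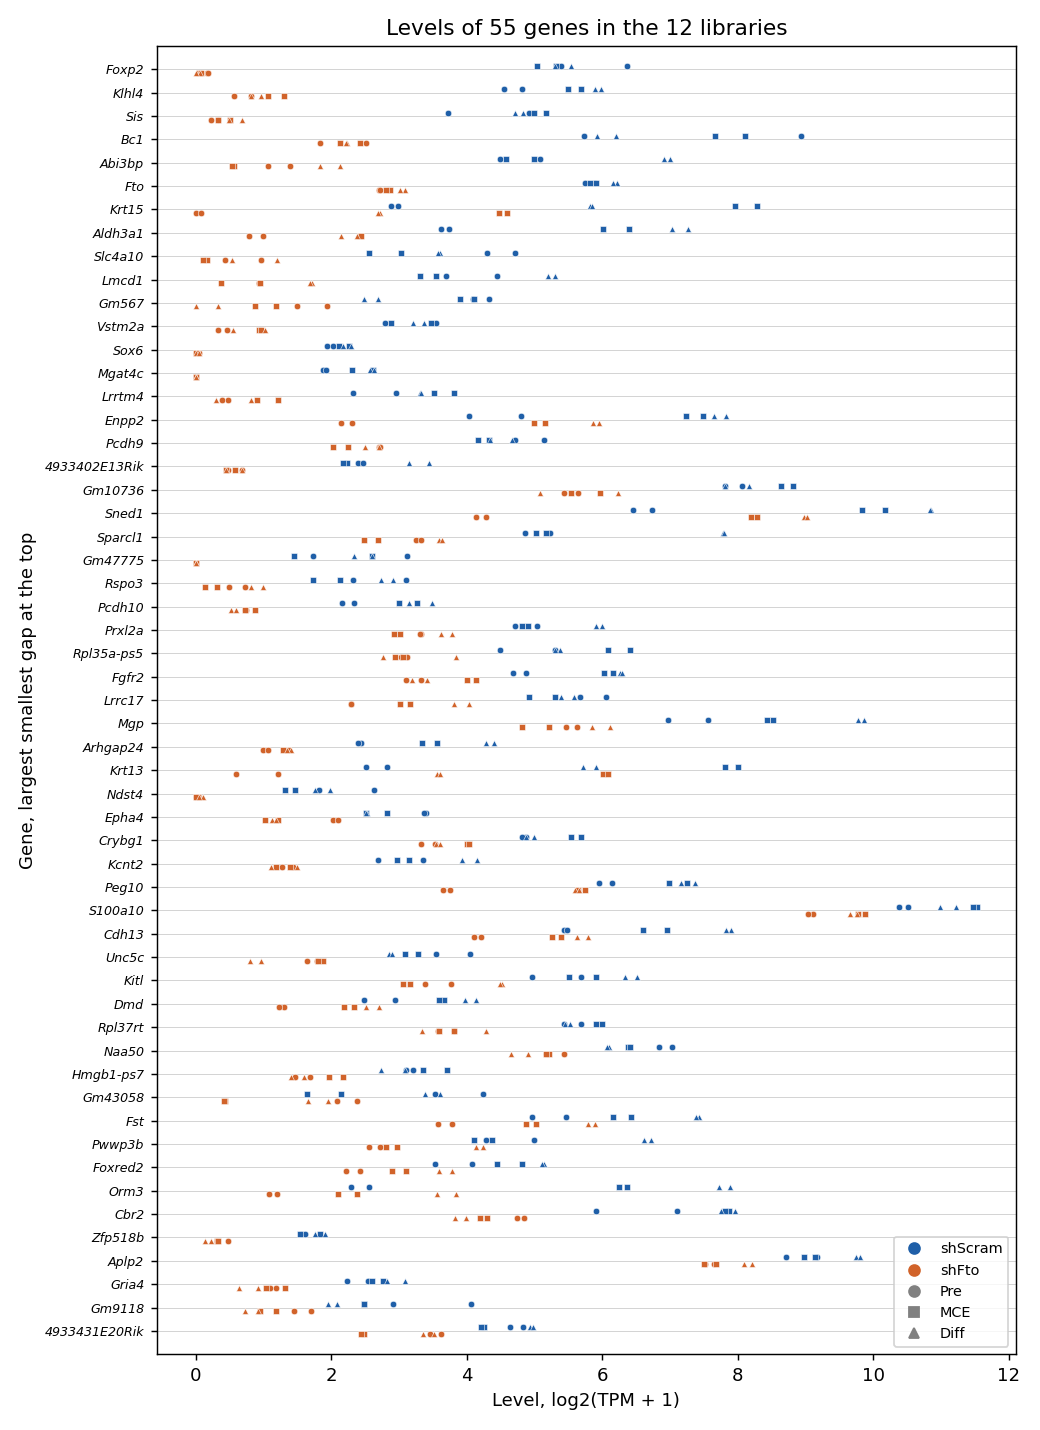
Levels of 55 of the 56 genes (rows, ordered by the smallest gap) in the 12 libraries on the log2(TPM + 1) scale, with shScram in blue, shFto in orange and the stages as different symbols. Within each stage the shScram symbols of every gene drawn lie to the right of the shFto symbols, which the rule required, while for stage-dependent genes such as Krt13 and Sned1 values of different stages overlap.

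Foxp2 had the widest gap (4.96) of the 56 genes. It encodes a forkhead transcription factor best known from brain development and vocal learning, and is annotated at chromosome 6, 14901349 to 15441977 (GRCm38, plus strand). Control libraries held 81.3 and 41.0 TPM of Foxp2 at Pre, 39.0 and 31.7 TPM at MCE and 38.3 and 45.7 TPM at Diff. All 6 shFto libraries lay between 0 and 0.128 TPM, so that 0.137% of the shScram mean was left. Its relatives did not share this, since Foxp1 was between 8.0 and 14.0 TPM in shScram and between 18.3 and 29.6 TPM in shFto cells, and Foxp4 was between 13.9 and 60.0 TPM against 53.6 and 70.3 TPM. Sox6, a transcription factor of the Sox family with roles in cartilage and muscle, stood at 2.81 to 3.87 TPM in shScram and at or under 0.0327 TPM in shFto cells. The other nuclear factors kept more. Lmcd1, a LIM domain cofactor of transcription, held 12 and 20.8, 10.7 and 8.89, and 38.3 and 35.7 TPM in shScram cells at the successive stages. In shFto cells it held 0.915 and 0.907, 0.923 and 0.292, and 2.28 and 2.21 TPM, so the lines stayed apart while both were highest at the last stage. Pwwp3b, which carries a chromatin-binding PWWP domain, kept 20.1%, and the zinc finger gene Zfp518b kept 10.3% of a low level.

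Bc1 is a short cytoplasmic RNA transcribed by RNA polymerase III, known as a repressor of translation in neurons, and consists of a 5' domain that gave rise to ID repeats, a central stretch rich in A and a unique 3' end. It is shown here because its sequence bears on how its reads can be placed. The transcript of the reference annotation spans 168 bases at chr7:144914470-144914637 on the plus strand of GRCm38, and the capitals mark the longest stretch in which every window of 10 bases holds at least 8 A, with other bases trimmed from its ends.
Bc1: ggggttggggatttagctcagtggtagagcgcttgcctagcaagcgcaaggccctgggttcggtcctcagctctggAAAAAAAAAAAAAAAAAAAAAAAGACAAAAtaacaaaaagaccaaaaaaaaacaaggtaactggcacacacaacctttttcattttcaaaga
Bc1 varied more between replicates than any other gene named here, with 488 and 52.0 TPM at Pre in shScram cells, 203 and 275 TPM at MCE and 72.5 and 59.8 TPM at Diff. The shFto libraries held 2.58 to 4.72 TPM, and even the lowest shScram library was far above them. Of the 40-base words in this transcript 36.4% also occurred in transcripts of 5 other genes, and 33.3% occurred in Lrrc17, which is itself one of the 56 genes. Among the other non-coding RNAs, Gm567 was between 4.58 and 19 TPM in shScram and between 0 and 2.84 TPM in shFto cells. Gm47775 was between 1.72 and 7.71 TPM in shScram cells. The antisense RNA 4933431E20Rik kept 34.0% and overlaps Gstm5 on the opposite strand, so that, since it is not stated whether the counting used strand, reads of the pair cannot be told apart.

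**Figure D3:**
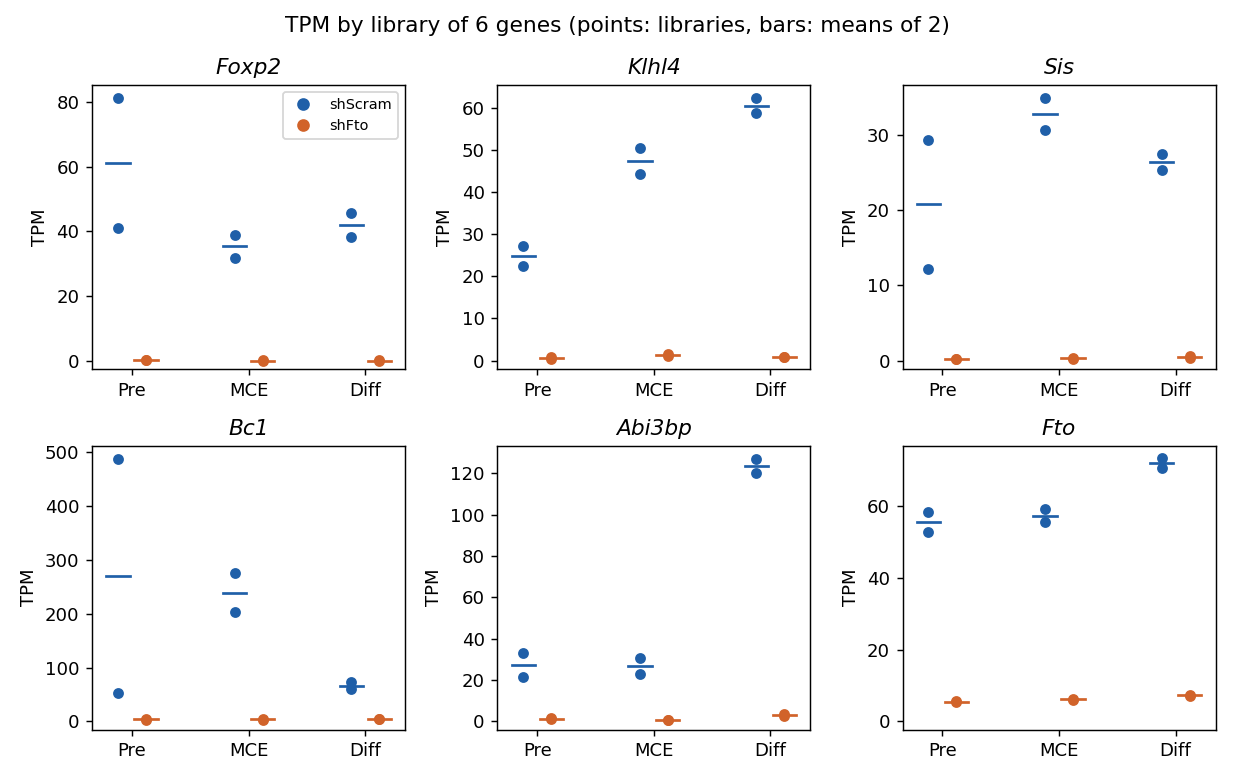
TPM in each library of Foxp2, Klhl4, Sis, Bc1, Abi3bp and Fto at the 3 stages, with shScram in blue, shFto in orange, points for libraries and bars for the means of 2. The shFto points of the first 5 genes lie at or under 4.72 TPM, those of Fto lie between 5.51 and 7.47 TPM, and the shScram preadipocyte points of Foxp2, Sis and Bc1 lie far apart.

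Fto itself ranked sixth by gap. The shScram libraries held 52.7 to 73.5 TPM and the shFto libraries 5.51 to 7.47 TPM, so the targeted gene kept 10.3% of its level in the line labelled as its knockdown. Foxp2, Klhl4, Sis, Bc1 and Abi3bp had wider gaps than the targeted gene. Among 15 m6A writers, erasers and readers Fto was the only one of the 56 genes, beside 0.351% of all tested genes.

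Klhl4 was the second gene by gap (3.74). It belongs to the kelch-like proteins, many of which select substrates for Cullin-3 ubiquitin ligases. Klhl4 was the only one of 22 kelch-like genes tested to meet the rule, which 0.351% of all tested genes met. In shScram cells it stood at 27.2 and 22.5 TPM at Pre, 50.4 and 44.3 TPM at MCE and 58.7 and 62.3 TPM at Diff. The shFto values lay between 0.475 and 1.47 TPM, which was 2.07% of the shScram mean. Sis came next (3.40) and encodes sucrase-isomaltase, an enzyme of the intestinal brush border that splits dietary sugars. It stood at 29.3 and 12.2 TPM, 34.9 and 30.7 TPM, and 25.3 and 27.4 TPM in shScram cells at the successive stages. No shFto library exceeded 0.608 TPM of Sis.

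Promoter windows from RefSeq (GRCm38.p6, from 250 bases before to 50 after the start) were found for 35 of the 56 genes, in 57 windows. A gene could have several windows, which were counted separately even where they overlapped. Windows are printed for Klhl4 and Sis, the genes with the widest gaps that had an entry, and for Orm3, in which the TATA motif stands close to the start. In the first, at chrX:114474083-114474382 on the plus strand, capitals mark a match to TAAACA on the opposite strand. In the second, at chr3:72967814-72968113 on the minus strand, they mark TAAACA and CCAAT. In the third, at chr4:63355908-63356207 on the plus strand, they mark TATAAA.
Klhl4: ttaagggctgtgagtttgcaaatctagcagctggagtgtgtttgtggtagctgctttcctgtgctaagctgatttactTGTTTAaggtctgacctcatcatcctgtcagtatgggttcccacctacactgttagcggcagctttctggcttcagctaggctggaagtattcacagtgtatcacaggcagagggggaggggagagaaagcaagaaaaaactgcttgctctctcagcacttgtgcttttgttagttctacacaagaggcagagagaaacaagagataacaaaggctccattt
Sis: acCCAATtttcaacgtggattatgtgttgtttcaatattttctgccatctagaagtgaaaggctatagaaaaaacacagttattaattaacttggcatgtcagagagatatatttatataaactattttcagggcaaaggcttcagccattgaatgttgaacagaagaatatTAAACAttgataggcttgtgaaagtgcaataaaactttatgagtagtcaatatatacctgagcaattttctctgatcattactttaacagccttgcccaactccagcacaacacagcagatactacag
Orm3: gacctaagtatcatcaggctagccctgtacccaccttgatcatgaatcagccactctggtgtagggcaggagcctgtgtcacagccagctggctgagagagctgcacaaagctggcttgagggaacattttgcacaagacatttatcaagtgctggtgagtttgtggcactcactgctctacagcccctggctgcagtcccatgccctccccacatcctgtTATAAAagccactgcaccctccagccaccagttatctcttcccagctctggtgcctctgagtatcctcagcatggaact
TAAACA, searched on both strands, occurred in 14.0% of the 57 windows and in 13.4% of 32851 windows of all genes. The shares were 43.9% and 37.4% for CCAAT, 29.8% and 35.7% for GGGCGG, 12.3% and 7.81% for TGANTCA and 1.75% and 1.79% for TGACGTCA, on both strands as well. TATAAA in the stretch from 40 to 20 bases before the start, on the gene's strand only, occurred in 3 of 57 windows (5.26%), those of Gm567, Mgat4c and Orm3, against 1.87% of all windows. The windows with at least 10 CpG made up 49.1% and 43.5%. These are matches of letters and say nothing about which factors bind there.

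Aldh3a1, an aldehyde dehydrogenase, had the widest gap (2.63) of the remaining enzymes. Its shScram values were 11.3 and 12.4 TPM at Pre, 82.9 and 63.2 TPM at MCE and 153 and 130 TPM at Diff. The shFto cells held 0.729 and 0.997, 4.34 and 4.43, and 3.42 and 4.20 TPM, a mean of 3.99%. Cbr2, a carbonyl reductase, kept 10.5% of 186 TPM overall but had a gap of only 1.08 in preadipocytes, where the shScram libraries held 59.3 and 136 TPM. Of its 40-base words, 16.8% occurred in another gene, Gm11771. A pair of enzymes that build sugar chains was close to absent from shFto cells. Mgat4c, a glycosyltransferase gene, stood at 2.69 to 5.16 TPM in shScram cells, and Ndst4, an enzyme of heparan sulfate sulfation, at 1.49 to 5.22 TPM against at most 0.0731 TPM in shFto cells. Prxl2a, a peroxiredoxin-like protein, kept 23.7%, Foxred2, a flavoprotein of endoplasmic reticulum-associated degradation, kept 32.1%, and Naa50, an N-terminal acetyltransferase, kept 37.2%, the highest share of the 56 genes.

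Secreted and matrix proteins were the most numerous class with 12 genes, grouped by role after their values were known. Abi3bp, an extracellular matrix protein, stood at 33.0 and 21.4 TPM at Pre in shScram cells, 30.7 and 22.8 TPM at MCE and 120 and 127 TPM at Diff. It was between 0.441 and 3.35 TPM in shFto cells, 2.69% of the shScram mean. Mgp, the matrix Gla protein that inhibits calcification, climbed from 125 and 188 TPM through 368 and 345 TPM to 932 and 880 TPM in shScram cells. Its shFto values were 48.5 and 43.1 TPM, 36.0 and 27.2 TPM, and 68.3 and 56.5 TPM, so the lines were nearest in preadipocytes. Sned1, another matrix protein, was the second most abundant of the 56 genes with a shScram mean of 988 TPM. It held 106 and 86.4 TPM in shScram preadipocytes and 1849 and 1824 TPM at the differentiation stage, against 16.6 and 18.4 TPM and then 504 and 517 TPM in shFto cells. Sned1 overlaps 2 other tested genes, one of them on the opposite strand.

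Several of the secreted proteins act on other cells. Enpp2, autotaxin, which makes lysophosphatidic acid and is abundant in adipose tissue, kept 23.9% of 133 TPM. Vstm2a, a secreted protein known from preadipocytes, was between 5.96 and 10.7 TPM in shScram and between 0.259 and 1.03 TPM in shFto cells. Rspo3, an amplifier of Wnt signalling, stood at 2.33 to 7.63 TPM and at 0.0926 to 0.979 TPM. Kitl, the ligand of the receptor Kit, kept 22.7%, and Fst (follistatin), which binds activins, kept 34.7%. Sparcl1, a matrix protein of the SPARC family, kept 8.77%, and Lrrc17, a leucine-rich repeat protein, kept 19%.

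Orm3, an acute-phase protein of the orosomucoid family, joined the 56 genes by a narrow gap in preadipocytes (1.09), where the shScram libraries held 3.89 and 4.87 TPM and the shFto libraries 1.30 and 1.12 TPM. At the differentiation stage the values were 211 and 236 TPM against 13.3 and 10.8 TPM. The neighbouring paralogs were lower in shFto cells at the later stages too. At the differentiation stage Orm1 was 84.8 to 108 TPM in shScram and 9.91 to 12.4 TPM in shFto cells, and Orm2 was 20.5 to 24.8 TPM and 1.32 to 2.26 TPM. Orm3 shares 5.45% of its 40-base words with 2 genes, Orm1 among them, so part of its reads is uncertain.

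Krt15 and Krt13, neighbouring keratin genes of stratified epithelia on chromosome 11, had the most stage-dependent levels of the 56 genes. Krt15 stood at 6.91 and 6.35 TPM in control preadipocytes, at 248 and 311 TPM at MCE and at 55.2 and 56.8 TPM at Diff. Its shFto values were 0 and 0.0562, 21.3 and 23.2, and 5.58 and 5.48 TPM. Krt13 stood at 4.72 and 6.06, 256 and 223, and 51.6 and 59.1 TPM in shScram cells, and at 1.32 and 0.507, 63.3 and 66.7, and 10.8 and 11.2 TPM in shFto cells. Both lines thus peaked at the MCE stage, at different heights. The nearby Krt19 peaked at 6.93 to 8.29 TPM in shScram and 1.99 to 2.73 TPM in shFto cells, and Krt16 at 7.94 to 9.38 and 0.768 to 1.13 TPM. Krt36, also nearby, did not peak at MCE in shScram cells, with 1.91 to 2.78 TPM there and 3.78 to 4.79 TPM at Diff. In shFto cells Krt36 was 0.597 to 1.14 TPM at MCE and 0.0747 to 0.0816 TPM at Diff. The 4 epithelial markers (Epcam, Cdh1, Krt8 and Krt18) summed to at most 1.12 TPM in any library and Epcam was at 0 in 11 of 12 libraries.

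The remaining cytoskeletal and scaffold genes kept between 12.3% and 35.1% of their levels. S100a10, the light chain of the annexin A2 complex, was the most abundant of the 56 genes and held 1461 and 1328, 2955 and 2844, and 2396 and 2039 TPM in shScram cells. Its shFto values were 552 and 524, 942 and 876, and 871 and 809 TPM, or 35.1% of the shScram mean. Dmd (dystrophin) kept 31.5%, Crybg1, a beta/gamma-crystallin domain protein, kept 34.2%, and Arhgap24, a GTPase-activating protein for Rac, kept 12.3%. The skeletal muscle markers summed to 3.28 to 8.02 TPM in shScram and 6.34 to 13.2 TPM in shFto cells, nearly all of it Des, and their part in the level of Dmd was not tested.

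Among 8 adhesion molecules and surface receptors, Fgfr2, a receptor for fibroblast growth factors, held 24.7 and 28.2 TPM at Pre in shScram cells, 70.8 and 64.5 TPM at MCE and 75.7 and 77.0 TPM at Diff. In shFto cells it held 7.56 and 9.02, 15.1 and 16.5, and 8.13 and 9.70 TPM. The related Fgfr1 was between 127 and 445 TPM in shScram and between 341 and 551 TPM in shFto cells. Cdh13, the GPI-anchored T-cadherin that binds adiponectin, rose to 237 and 227 TPM in shScram cells at the differentiation stage, against 48.5 and 54.1 TPM in shFto cells, and kept 27.9% over the stages. The protocadherins Pcdh9 and Pcdh10 kept 20.2% and 9.11%. With Cdh13, 3 of 51 cadherins and protocadherins tested met the rule (5.88%), beside 0.351% of all tested genes, and this count is a description. Lrrtm4, a synaptic adhesion protein, kept 7.45%, the netrin receptor Unc5c kept 20.7%, the ephrin receptor Epha4 kept 28.5% and Aplp2, a relative of the amyloid precursor protein, kept 35.0% of 636 TPM.

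The channels and transporters were 3 genes also known from neurons. Slc4a10, a sodium-bicarbonate transporter, held 25.1 and 18.6, 7.13 and 4.86, and 11.2 and 10.9 TPM in shScram cells, against 0.0810 to 1.29 TPM in shFto cells. Kcnt2, a sodium-activated potassium channel, kept 14.8%, and Gria4, an AMPA receptor subunit, kept 19.3%. The 4 neuron markers (Rbfox3, Snap25, Stmn2 and Syt1) summed to 0.714 to 2.46 TPM in shScram and to 0.102 to 0.493 TPM in shFto cells, with Rbfox3 at 0 in all 12 libraries, and their part in these differences was not tested. Of the coding genes in no other class, Peg10, an imprinted gene derived from a retrotransposon, kept 31.1% and 4933402E13Rik kept 8.40%. Peg10 was the only one of 16 imprinted genes tested to meet the rule, which 0.351% of all tested genes met.

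The 6 pseudogenes are uncertain. All 40-base words of Gm10736 occurred in Rpl41, so its 309 TPM in shScram cells and the 16.5% kept in shFto cells cannot be assigned to one locus. Rpl41 itself was 3720 to 6170 TPM in shScram and 2360 to 3620 TPM in shFto cells. The shares of words found in other genes were 75.2% for Rpl35a-ps5, 74.7% for Gm9118, 68.6% for Hmgb1-ps7 and 45.9% for Rpl37rt. Gm43058, the sixth, overlaps 2 tested genes. Of the 56 genes, 34 had no such word and 47 had under 5%, and Cbr2 and Orm3 were among the coding genes above that share. Fgfr2 has an annotated model of 2960 kb that encloses 23 other tested genes, and Crybg1 and Gria4 each overlap 1 tested gene.

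Changes between stages within a line were not compared by the rule, although it used the same values. They were tested with limma on log2(TPM + 1), with Benjamini-Hochberg adjustment over 15968 genes. The rule asked for both shScram values to lie above the shFto values at every stage, which favours high levels and close libraries. The shScram counts and the shares beside them are therefore a description. In shScram cells 23 of the 56 genes rose and 11 fell from preadipocytes to the MCE stage, or 41.1% and 19.6%, where 12.2% of all tested genes rose and 26.9% fell. From the MCE to the differentiation stage 18 rose and 5 fell, beside 20.0% and 5.22% of all tested genes. In shFto cells 16 rose and 5 fell in the first step (8.8% and 19.9% of all tested genes) and 16 rose and 6 fell in the second (20.2% and 6.48%). The 10 genes under 1 TPM in every shFto library, Mgat4c and Gm47775 at 0 among them, entered the test through their shScram levels and none of them passed the threshold in shFto cells, so the shFto counts are not set against those shares. The median change of the 56 genes in shScram cells was 0.38 and 0.30 in the successive steps, beside -0.17 and 0.23 for all tested genes. Median-ratio scaling set the medians of all genes to between 0 and 0.01 in size. With it the counts of genes that rose and fell were 25 and 3, 15 and 8, 19 and 3, and 13 and 8. In shScram cells 20.1% and 17.7% of all tested genes then rose and fell in the first step, and 11.7% and 11.1% in the second. With quantile normalization the counts were 23 and 6, 15 and 5, 21 and 3, and 9 and 12, so the balance of the last comparison turned. The shares of all tested genes in shScram cells were then 17.3% and 18.6%, and 9.13% and 8.47%.

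The first step in shScram cells rests on the preadipocyte libraries that differed most. Of its 11 falling genes, 2 stayed past the threshold without each library in turn, and their number was 7 without replicate 1 of shScram at Pre, 15 without replicate 2 of that group, 4 without replicate 1 at MCE and 2 without replicate 2 at MCE. Of the 23 rising genes 19 stayed. Without replicate 1 of shScram at Pre and at Diff together, 25 rose and 8 fell in this step, and the rule was met by 79 genes that included all 56. That the 79 genes included all 56 was fixed in advance, since leaving out libraries can only widen the gaps. With the 4 libraries of the comparison alone, 6 genes rose and 0 fell, beside 1.24% and 1.92% of all tested genes. In shFto cells 13 of 16 and 3 of 5 stayed in the first step. In the second step 15 of 18 rising genes stayed in shScram cells and 6 of 16 in shFto cells, whose count was 11 without replicate 1 at MCE, 9 without replicate 2 at MCE, 10 without replicate 1 at Diff and 9 without replicate 2 at Diff.

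Krt13, Krt15, Orm3, Sned1, Enpp2 and Aldh3a1 rose from preadipocytes to the MCE stage in both lines under every setting that was run. In shScram cells the changes by limma were 5.24 (SE 0.21, adjusted p = 6.36e-07) for Krt13, 5.19 (SE 0.14, adjusted p = 1.92e-07) for Krt15 and 3.89 (SE 0.17, adjusted p = 1.09e-06) for Orm3. In shFto cells they were 5.14, 4.50 and 1.10 for the same genes, all past the threshold. Sned1 rose by 3.41 and 4.04, Enpp2 by 2.94 and 2.85 and Aldh3a1 by 2.51 and 1.54 in shScram and shFto cells. Peg10 rose by 1.07 and 2.00. The genes with the lowest called values in shScram cells were Gm43058 (-1.98, SE 0.27, adjusted p = 0.000653), Slc4a10 (-1.71, SE 0.28, adjusted p = 0.00193) and Gm9118 (-1.0, SE 0.32, adjusted p = 0.0336) by limma. These 3 calls were lost with the 4 libraries of the comparison alone, and that of Gm9118 also without replicate 1 of shScram at Pre or either library at MCE, without a filter, with either scaling and with the 6 libraries of the line, at adjusted p of up to 0.248.

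From the MCE to the differentiation stage Sparcl1 (2.70, SE 0.15, adjusted p = 2.01e-05), Pwwp3b (2.43, SE 0.22, adjusted p = 0.000198) and Abi3bp (2.18, SE 0.23, adjusted p = 0.000418) rose most in shScram cells by limma. In shFto cells the same genes rose by 1.02, 1.30 and 1.43. Krt15 fell by 2.29 (SE 0.14, adjusted p = 2.93e-05) and Krt13 by 2.09 (SE 0.21, adjusted p = 0.000284) in shScram cells, and by 1.83 and 2.46 in shFto cells. Gm567 fell by 1.41 in shScram cells (SE 0.22, adjusted p = 0.00225), a call lost at a pseudocount of 0.1.

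**Figure D4:**
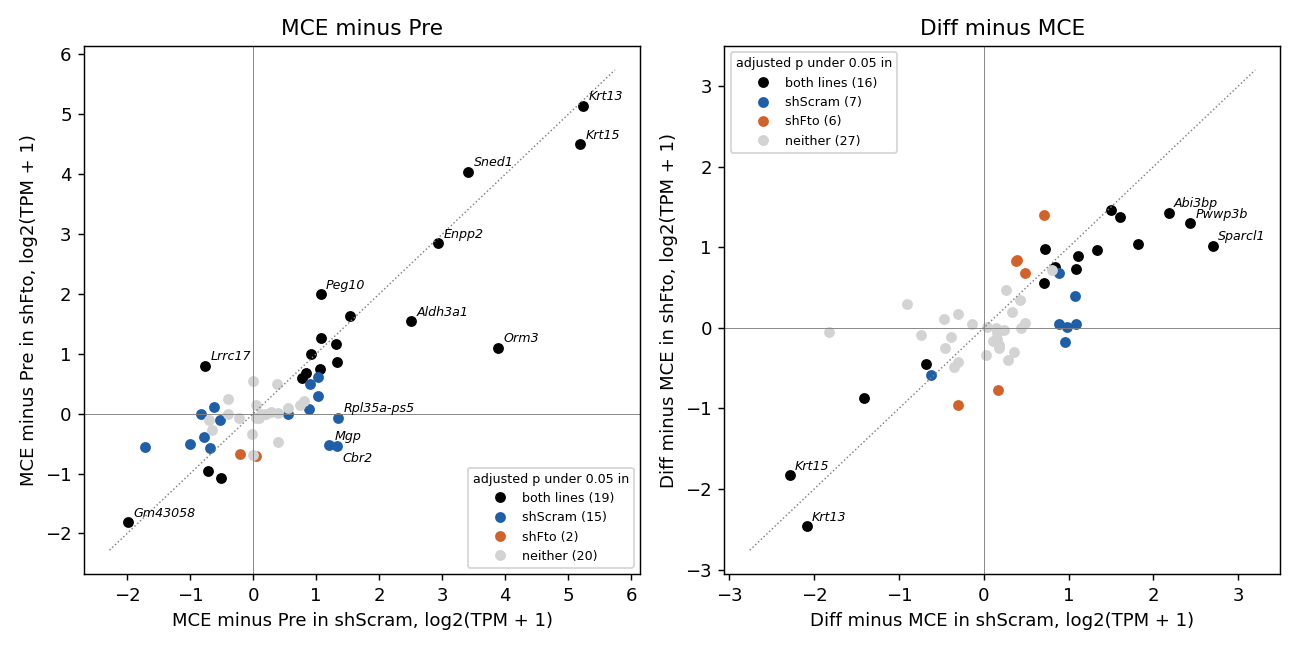
Change of the 56 genes between stages on the log2(TPM + 1) scale in shScram cells (horizontal axis) and shFto cells (vertical axis), from Pre to MCE (left) and from MCE to Diff (right), colored by the line in which the adjusted p was under 0.05, with a dotted line where the changes are equal. In the left panel 19 genes passed the threshold in both lines, 15 in shScram alone, 2 in shFto alone and 20 in neither, and in the right panel 16, 7, 6 and 27. Genes at or near 0 in shFto cells, such as Mgat4c and Ndst4, could pass in shScram cells alone. The shares of all tested genes in these classes were not counted.

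No threshold was passed in any of the 4 comparisons by 11 genes, namely Foxp2, Sis, Bc1, Fto, Vstm2a, Sox6, Zfp518b, Gria4 and the non-coding or pseudogene loci Gm10736, Gm47775 and Rpl37rt, which does not show that their levels stayed the same. For Foxp2 the changes in shScram cells were -0.70 (SE 0.28) and 0.24 (SE 0.28), for Sis 0.75 (SE 0.32) and -0.30 (SE 0.32), and for Bc1 0.56 (SE 0.80) and -1.83 (SE 0.80). In shFto cells Foxp2, Sis, Sox6, Zfp518b and Gm47775 were under 1 TPM throughout, where even a change of several fold is small on this scale. Klhl4 rose by 0.90 at the MCE stage in shScram cells (SE 0.17, limma adjusted p = 0.00352), but not with the 4 libraries of the comparison alone (adjusted p = 0.108). A group of 8 genes passed the threshold in all 4 comparisons, namely Krt15, Sned1, Krt13, Crybg1, Gm43058, Fst, Orm3 and 4933431E20Rik. The shares of all tested genes that passed in all 4 comparisons or in none were not counted, so the 8 and the 11 are a description. By class, 7 of 7 cytoskeletal and scaffold genes rose from Pre to MCE in shScram cells (12.2% of all tested genes). In shFto cells 5 of these 7 did. Klhl4 was counted in this class. Of 5 nuclear factors 0 rose in that step in either line. From MCE to Diff 7 of 12 secreted and matrix genes rose in shScram cells (20.0% of all tested genes) and 9 of 12 in shFto cells. The classes were drawn up after the values were seen, so these counts are a description.

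Since 0.351% of all tested genes met the rule, a count of 0 in lists of the sizes below is near that share, and the counts are given as a description. Of 24 adipocyte genes tested, 0 met the rule, and a gap over 1 was seen in 0 of them in preadipocytes (1.32% of all tested genes), 6 at MCE (2.71%) and 15 at Diff (2.76%), where the median difference between the lines was -1.38 on the log2(TPM + 1) scale, beside 0.03 for all tested genes. The 6 adipocyte markers (Adipoq, Fabp4, Plin1, Cidec, Lpl and Cd36) summed to 121 and 182 TPM in shScram and to 256 and 288 TPM in shFto preadipocytes. At the differentiation stage the sums were 1470 and 1480 TPM against 395 and 432 TPM. The shFto preadipocyte sums were mostly Lpl, which was between 196 and 282 TPM over the shFto libraries. In preadipocytes the median difference of the 24 adipocyte genes was 0.01, beside 0.08 for all tested genes. No member was found among 17 fibroblast genes, 20 mitotic genes or 16 interferon-stimulated genes tested. Single genes met the rule among 13 FGF ligands and receptors, 17 ephrins and receptors, 17 potassium channels, 205 solute carriers and 357 zinc finger proteins named Zfp, and 5 among 2639 predicted genes named Gm. The forkhead list, drawn up by symbol, held Foxp2 and also Foxred2, which is no forkhead factor, among 25 genes. None was found in the lists of Hox factors, integrins, collagens, matrix metalloproteinases and Adam proteases, semaphorins and plexins, sodium and calcium channels, cytochrome P450 enzymes, glutathione S-transferases, serpins, Wnt ligands and frizzled receptors, IGF binding proteins, adhesion and orphan G protein-coupled receptors, MHC genes or transmembrane proteins named Tmem. Macrophage markers summed to at most 11 TPM and endothelial markers to at most 1.15 TPM in any library.

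The 56 genes were long. Their median span on the genome was 56.9 kb (quartiles 8.28 and 291 kb), beside 16.0 kb (4.52 and 42.1 kb) for all tested genes, and 20 of them (35.7%) spanned over 100 kb, beside 9.82%. Among protein-coding genes, 46 of the 56, the shares over 100 kb were 43.5% and 12.3%. The longest annotated spans, 2960 down to 541 kb, were those of Fgfr2, Dmd, Cdh13, Pcdh9, Lrrtm4, Mgat4c, Sox6 and Foxp2. That of Fgfr2 is a model that overlaps 23 other tested genes. The RefSeq start window of Fgfr2, chr7:130266759-130267058, lies inside this model, so its length is uncertain. The longest annotated transcripts of the 56 genes had a median length of 4270 bases beside 2790 and a GC content of 45.5% beside 49.4%. Their median number of GGAC motifs per kb, part of the sequence context of m6A, was 3.43 beside 3.86. The 56 genes lay on 16 chromosomes, with 7 each on chromosomes 3 and 5 and none on 12, 17, 18 or 19. The 215 flanking genes that did not meet the rule had a median difference between the lines of -0.13 on the log2(TPM + 1) scale, beside 0.06 for all tested genes. Krt13 and Krt15 on chromosome 11 were neighbours among the 56 genes.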

How the data were processed

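Fragmented RNA of 3T3-L1 cells with shScram or shFto was sequenced at 3 stages (12 libraries, 6 groups). The authors used Trim Galore 0.6.5 for trimming and HISAT2 2.1.0 for alignment to GRCm38, and deposited the TPM per gene that StringTie 2.1.4 gave. Their DESeq2 1.30.1 test of counts was not repeated, because counts were not used here. The sequencing depth behind TPM values is unknown, and precision is limited by having 2 libraries in a group. Between 20853 and 24018 genes were above 0 in a library. Nothing says that replicates were separate cultures, so p-values may measure technical spread alone.

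The rule was applied to log2(TPM + 1) of 55487 genes. This scale understates the change of low genes. Stage changes were tested two-sided with limma 3.58.1 in R 4.3.3 (a mean per group over 12 libraries, eBayes with a trend) on the 15968 genes with at least 1 TPM in at least 2 libraries, with Benjamini-Hochberg adjustment and a threshold of 0.05. On simulated data of that size, 197 to 200 of 200 genes changed by 1.5 on the log2 scale were recovered, with 7 to 17 false calls. These counts give no error rate for the stage changes reported here. The share of false calls in the measured libraries, where the shScram preadipocyte libraries differed most (r of 0.939), was not tested. Other steps used Python 3.11.15, numpy 2.4.6, pandas 2.3.3 and matplotlib 3.10.9. All 56 genes, and 15928 tested genes, matched GENCODE M21, which gave coordinates on GRCm38 and the Bc1 sequence. Shared sequence was counted as 40-base words of the longest transcript that occur in transcripts of other genes. Flanking genes were the nearest 2 tested genes on each side.

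The named genes were Fto, the 15 with the widest smallest gap, the 8 with the highest shScram mean, members named in earlier results, the 3 highest and 3 lowest called stage changes in shScram cells, members on a gene list, and those near the threshold or next to another member. Other genes are mentioned to account for the rest, and 1 of the 56 is counted but not reported by name here. The members, lists and markers were chosen with earlier results of these data known. Alternatives were other pseudocounts, filters, scalings, libraries in the fit, estimates of the spread, a replicate block, means in place of extremes, a gap of 2 and each library left out. Leaving out replicate 1 of shScram at Pre and at Diff together was chosen after seeing the data.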

Additional observations from a re-analysis of the deposited data

Results flagged for a closer look

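For 8 stage changes both shScram libraries moved one way and both shFto libraries the other, and the difference between the lines was not tested, since the rule had used it. With 2 libraries against 2, 33.3% of arrangements in a line do not overlap. The share of all tested genes with such changes was not counted, so the 8 are a description. Values are the change in shFto minus that in shScram cells on the log2(TPM + 1) scale. From preadipocytes to the MCE stage it was -1.87 for Cbr2, -1.74 for Mgp, 1.56 for Lrrc17 and 0.74 for Unc5c. Mgp changed by 1.21 in shScram cells (limma adjusted p = 0.0023) and by -0.53 in shFto cells (adjusted p = 0.0867), and Cbr2 by 1.33 (adjusted p = 0.00913) and -0.54 (adjusted p = 0.233). Lrrc17 passed the threshold in both lines, at -0.76 (adjusted p = 0.0111) in shScram and 0.80 (adjusted p = 0.0104) in shFto cells, and lost it in shScram cells with median-ratio scaling, with the 6 libraries of the line or the 4 of the comparison alone and without replicate 2 at MCE, and in shFto cells without either library at Pre or replicate 1 at MCE. Lrrc17 also shares 2.03% of its 40-base words with Bc1. From the MCE to the differentiation stage the difference was -1.12 for Aldh3a1, -0.94 for Fgfr2, -0.68 for Gria4 and -0.65 for Klhl4. Fgfr2 fell in shFto cells (-0.77, limma adjusted p = 0.00468) and changed by 0.17 in shScram cells (adjusted p = 0.407).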

How the results depend on the processing

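The rule was met by 134 genes at a pseudocount of 0.1, by 118 with group means in place of the nearest libraries and by 11 at a gap over 2. The count ran from 57 to 73 with 1 library left out and was 79 without replicate 1 of shScram at Pre and at Diff together. A left-out library or a smaller pseudocount can only widen the gaps, so all 56 genes had to stay in those settings. The scalings could have removed genes. All 56 were among the 61 genes found with median-ratio scaling and the 65 found with quantile normalization. For the change from Pre to MCE in shScram cells, the number that fell, 11, was 7 without a filter, 7 at a mean of at least 5 TPM, 3 with median-ratio scaling, 6 with quantile normalization, 2 with the 6 libraries of the line and 0 with the 4 libraries of the comparison, where 6 in place of 23 rose, and it ran from 2 to 15 with 1 library left out. From MCE to Diff in shScram cells 10 rose and 3 fell with the 6 libraries of the line, and 3 fell at a pseudocount of 0.1, 8 with median-ratio scaling and 9 with the 4 libraries of the comparison. From Pre to MCE in shFto cells the 5 that fell were 3 with either scaling, 11 with the 6 libraries of the line, 8 with the 4 libraries of the comparison, 12 without the 2 doubted libraries, and 3 to 5 with 1 library left out. From MCE to Diff in shFto cells 9 rose and 12 fell with quantile normalization, and 9 to 11 rose with 1 library left out. The shares of all tested genes moved as well. In shScram cells 26.9% fell from Pre to MCE, 11.5% with the 6 libraries of the line and 1.92% with the 4. From MCE to Diff 20.0% rose and 5.22% fell there, and 5.1% and 1.65% with the 6 libraries. In shFto cells 19.9% fell from Pre to MCE, 14.1% and 13.0% with the scalings, 36.1% with the 6 libraries and 34.6% with the 4. From MCE to Diff 20.2% rose and 6.48% fell there, and 11.6% and 10.9% with quantile normalization. The cause of these shifts was not tested. Over all alternatives 206 of 1490 gene results lost the threshold and none changed sign.

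With the replicate number as a block, 23 rose and 11 fell, 18 and 4, 15 and 4, and 15 and 6 in the 4 comparisons. The shares of all tested genes were 11.3% and 25.2%, 17.4% and 4.6%, 8.19% and 18.4%, and 18.6% and 5.67%. Of 100 gene calls 4 were lost. Correlations of the deviations of same-numbered libraries were 0.12, -0.07, 0.02 and 0.17, so the numbers were not taken to pair the libraries.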
